A study of Homo sapiens with 8 samples.

Results

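AXL, ANKRD1 and ARHGAP29 are 3 genes linked to the transcriptional regulator YAP, and they were followed here in A375 human melanoma cells that express a PLK1 shRNA or a control shRNA on induction. The members are every row of the authors' table of transcript clusters that carries one of these symbols, which gave 4 of 491 clusters and 3 of 305 symbols. They were selected on the averages of this same table, so their differences are given as a description, without a test. The knockdown cells were A375 shPLK1 (4 arrays) and the control cells, with a nonsense shRNA, were A375 shNS (4 arrays). Both were transduced with a lentiviral TRIPZ vector and treated with doxycycline for 48 h, and each is 1 polyclonal pool selected with puromycin, according to the Methods for such lines. The labels give several catalog numbers for the PLK1 shRNA and do not say which was used. All 8 labeled arrays were used, although the Methods speak of 3 replicates per line. RNA was hybridized to Affymetrix Human Transcriptome Arrays, which measure single exons and exon junctions. A transcript cluster gathers the probe sets of 1 locus and is classed as coding or noncoding by the manufacturer's annotation in the table.

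The authors' table gives 1 average per group for each cluster, under the headings 5d and NS, and no spread. NS was read as shNS. What 5d stands for is not explained in the labels or the Methods, and the column was read as shPLK1 because no other group exists. The largest decrease in the table, at -6.94 log2 units, belongs to a cluster of chromosome 8 (4.36 in 5d and 11.3 in NS). Among exon probe sets with chromosome 8 IDs, the differences between shPLK1 and shNS arrays ran from -7.66 to 3.02 log2 units, so a difference of that size was seen there only in the direction of lower signal in shPLK1. No table that pairs probe sets with genes was used, and the 3 genes therefore have no values by array. PLK1 has no cluster in the authors' table, so its knockdown was not checked on these arrays. Across exon probe sets, which do not count as replicates, Pearson's r was 0.986 to 0.991 among shPLK1 arrays, 0.988 to 0.991 among shNS arrays and 0.979 to 0.985 between the groups. None of 22 markers of melanocytes, fibroblasts, keratinocytes, endothelial cells and leukocytes is in the authors' table. Since that table lists only clusters past a fold of 2, the melanoma identity of the cells could not be checked from it.

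YAP and its relative TAZ are coactivators that the kinases of the Hippo pathway keep out of the nucleus. In the nucleus they bind DNA through TEAD factors and raise genes of growth, matrix and the cytoskeleton. In melanoma, AXL is a receptor tyrosine kinase known as a marker of the dedifferentiated, invasive state. ANKRD1 is an ankyrin repeat protein known from heart muscle and one of the most used readouts of YAP activity. ARHGAP29 is a GTPase-activating protein that switches off the small GTPase RhoA, which builds actin stress fibers.

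All 4 clusters were higher in 5d than in NS. Of the 305 symbols of the whole table, 128 (42.0%) were higher, and as the genes were taken from this contrast nothing is read from that comparison. AXL, a coding cluster with a chromosome 19 ID, averaged 10.68 in 5d and 9.56 in NS on the log2 scale, a difference of 1.12 or 2.17-fold. ANKRD1, a coding cluster with a chromosome 10 ID, averaged 7.49 in 5d and 6.32 in NS, a difference of 1.17 or 2.25-fold. ARHGAP29, with chromosome 1 IDs, has both classes of cluster. Its coding cluster averaged 7.48 in 5d and 5.60 in NS, a difference of 1.88 or 3.68-fold. Its noncoding cluster averaged 7.21 in 5d and 5.25 in NS, a difference of 1.96 or 3.89-fold. The receptor and the ankyrin repeat protein thus differed by nearly the same amount, and both clusters of the RhoA regulator differed by more. Without a spread for these averages, no error can be put on the gap between the genes. Signals of different clusters come from different probes, so the level of a gene is not read against that of another gene. Levels were set beside each other only to choose the exon probe sets and the nearest clusters given below.

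**Figure D1:**
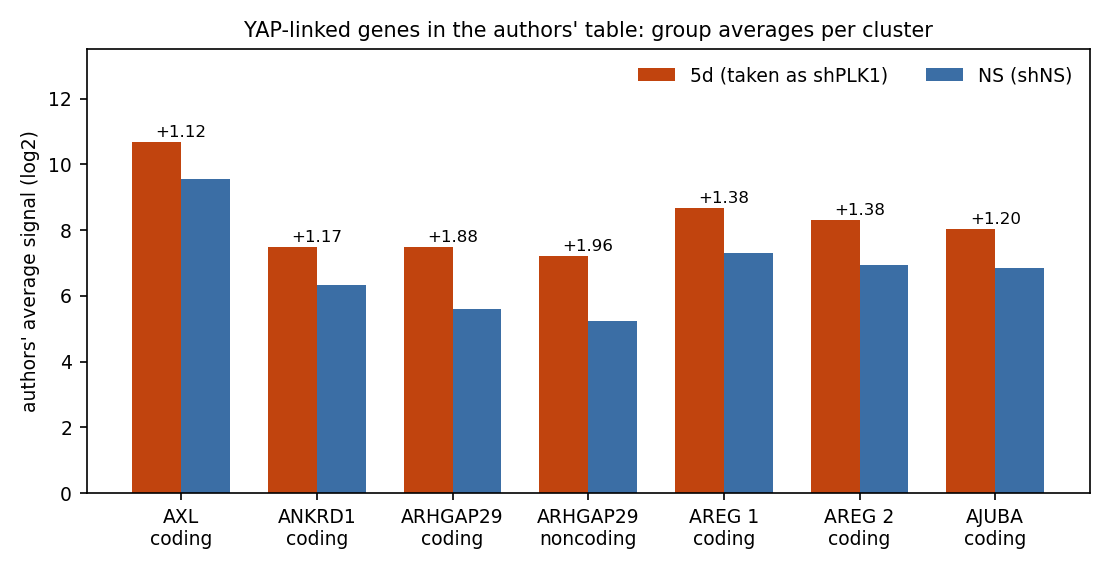
Authors' average signal (log2, vertical axis) in 5d, taken as shPLK1, and in NS, which is shNS, for each cluster of AXL, ANKRD1 and ARHGAP29 and for the other YAP target genes in the table, AREG and AJUBA. The number over each pair is the difference, 5d minus NS, which ran from 1.12 for AXL to 1.96 for the noncoding cluster of ARHGAP29; the table gives no spread.

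Of the 491 clusters, 185 were higher in 5d and 306 were lower. Among the higher ones the differences ran from 1.01 to 2.83 with a median of 1.24 log2 units. The noncoding cluster of ARHGAP29 held rank 11 of 185 and its coding cluster rank 15, shared with 1 other cluster. ANKRD1 held rank 109, shared by 5 clusters, and AXL rank 126, shared by 3. ARHGAP29 was therefore above the median of the higher clusters in both classes, while ANKRD1 and AXL were below it. The table has no rows below 2-fold, and the smallest higher difference in it is 1.01, against 1.12 for AXL.

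**Figure D2:**
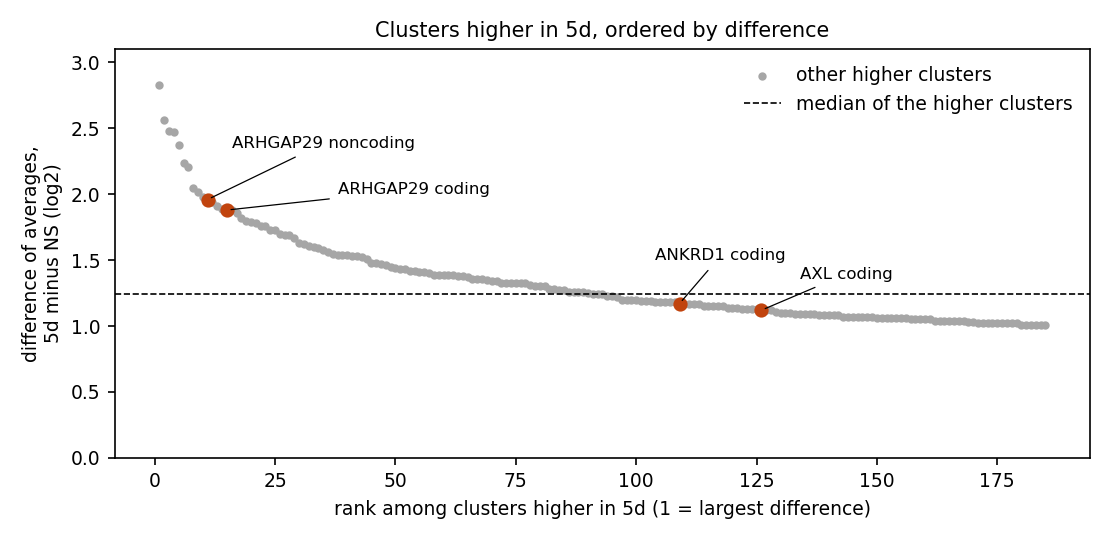
Difference of the authors' averages (5d minus NS, log2, vertical axis) for the 185 clusters higher in 5d, ordered from the largest (rank 1, horizontal axis). Red points are the clusters of ARHGAP29 at ranks 11 and 15, ANKRD1 at 109 and AXL at 126, and the dashed line is the median of 1.24.

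The 2 clusters of ARHGAP29 differed from each other by 0.08 log2 units in their change. Of the 305 symbols, 36 have clusters of both classes, and in all 36 the classes had the same direction, with 11 symbols higher in both. The absolute gap between the classes had a median of 0.29 and a range of 0.01 to 2.23 log2 units. Of the 36 symbols, 3 had a smaller gap than ARHGAP29, and CLDN10-AS1, LINC00460 and MMP1 had the same gap of 0.08. Whether its 2 clusters share probes was not tested, and they are not counted as separate evidence. In RefSeq (GRCh38.p14) ARHGAP29 spans chr1:94168905-94314592, and the long noncoding gene ARHGAP29-AS1, at chr1:94247868-94334806, overlaps it. AXL spans chr19:41219223-41261766 and ANKRD1 chr10:90912096-90921087.

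**Figure D3:**
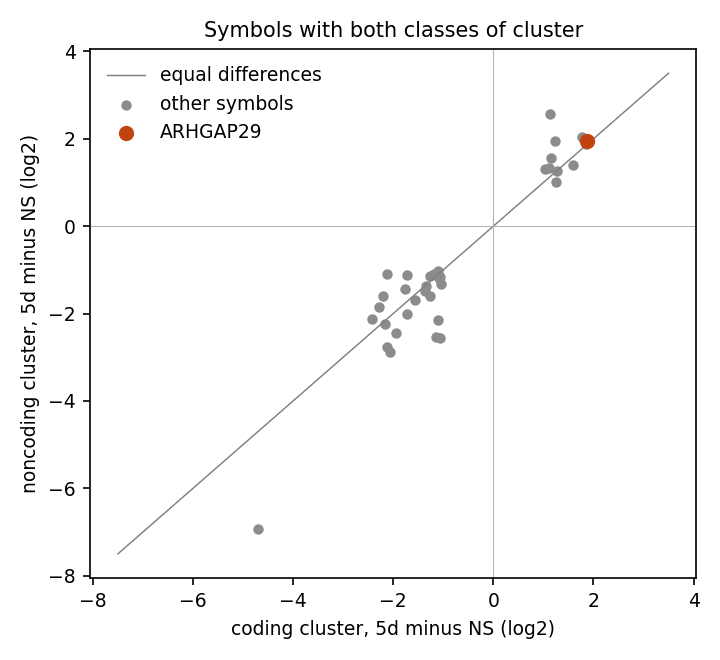
Difference of the authors' averages (5d minus NS, log2) in the coding (horizontal axis) and the noncoding (vertical axis) clusters of the 36 symbols with both classes, means being used where a class has several clusters. ARHGAP29 (red) lies at 1.88 and 1.96, near the line of equal differences.

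The other genes of the pathway were looked up in the same table. Of 30 YAP and TAZ target genes 5 are listed, and all 5 were higher in 5d. Besides the 3 genes themselves these are AREG and AJUBA. AREG, an EGF receptor ligand, has 2 coding clusters, the first averaging 8.67 in 5d and 7.29 in NS and the second 8.31 in 5d and 6.93 in NS, a difference of 1.38 in each. AJUBA, a LIM protein that restrains the LATS kinases, averaged 8.04 in 5d and 6.84 in NS, a difference of 1.20. The list was written with results of these data known, and it includes AXL, ANKRD1 and ARHGAP29, so these counts are no independent evidence. As a background, 98 of 20052 RefSeq protein-coding symbols (0.489%) are listed as higher and 123 (0.613%) as lower, though how many of them the array measures was not checked. The other 25 target genes have no row, among them CCN1 and CCN2, which encode matricellular proteins and are classical targets beside ANKRD1.

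Among 24 Hippo kinases and regulators, AJUBA was the 1 listed gene. None of 10 genes for YAP, TAZ, the TEAD factors and their VGLL cofactors is listed. AXL was the 1 listed gene of its family of 5, which holds the sister receptors TYRO3 and MERTK and the ligands GAS6 and PROS1. ANKRD1 was the 1 listed gene of 7 that comprise its muscle relatives and partners such as MYPN and TTN. ARHGAP29 was the 1 listed gene of 14 that hold its partner RASIP1, the GTPases RAP1A and RHOA and the kinase ROCK1. Over these 6 lists, 77 of 82 different genes have no row. A missing row can mean a change under 2-fold, a p-value past the authors' limit or no cluster, and it is not a measured lack of change.

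As a background for arrays of this kind, each cluster was set beside the single exon probe sets whose mean over the 8 arrays lay within 0.25 log2 units of the cluster's mean level. Around AXL there were 10596 such exon probe sets, with a median within-group SD of 0.14 log2 units. Of these, 35 (0.330%) were higher in shPLK1 than in shNS by at least the 1.12 of AXL, and 63 were lower by as much. Around ANKRD1, 296 of 35920 (0.824%) were higher by at least 1.17, with a median SD of 0.19, and 339 were lower by as much. Around the coding cluster of ARHGAP29, 85 of 38515 (0.221%) were higher by at least 1.88, with a median SD of 0.20, and 166 were lower by as much. Around its noncoding cluster, 73 of 40526 (0.180%) were higher by at least 1.96, with a median SD of 0.21, and 167 were lower by as much. Because the genes come from a table of clusters past 2-fold, low shares follow from their selection and nothing is read from them. At each of the 4 levels more exons were lower than higher by that amount. A cluster average is made from many probe sets, so these are spreads and shares of single exons and not errors of the clusters.

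**Figure D4:**
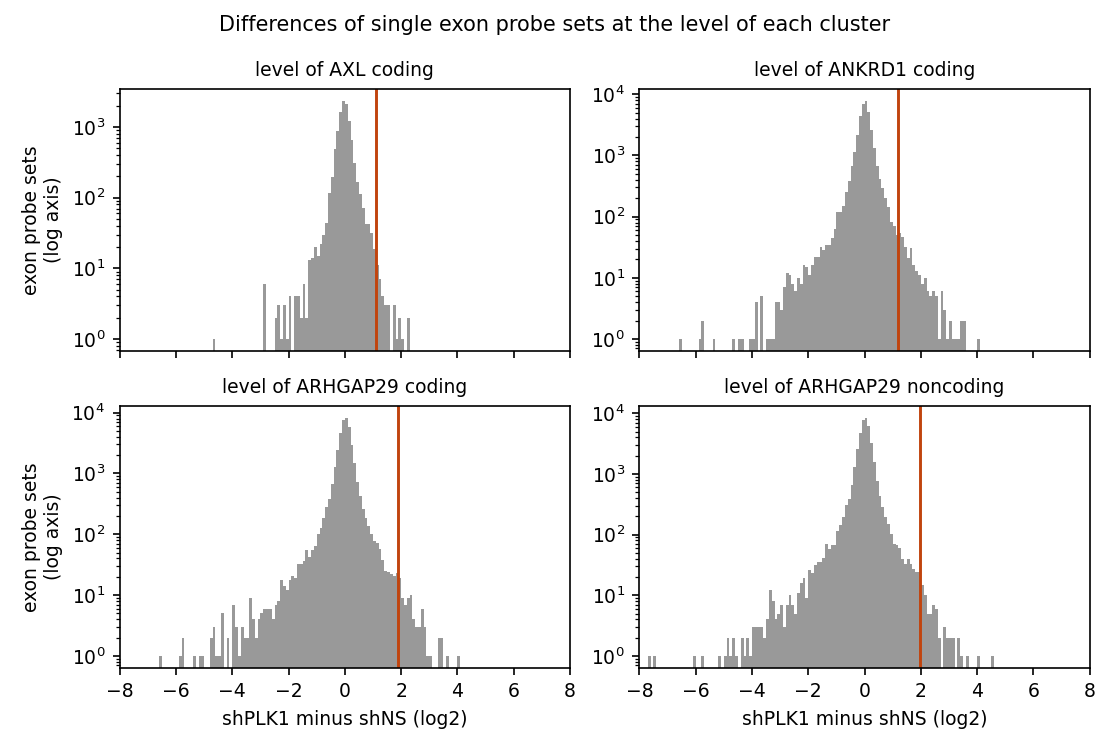
Number of exon probe sets (vertical log axis) by their difference between shPLK1 and shNS (log2, horizontal axis) among those within 0.25 log2 units of the level of each cluster. The red lines mark the clusters at 1.12, 1.17, 1.88 and 1.96, past which 0.180% to 0.824% of the exon probe sets lie.

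Over all 573909 exon probe sets, limma with Benjamini-Hochberg adjustment called 11422 (1.99%) higher and 12624 (2.20%) lower in shPLK1 at an adjusted p under 0.05. The calls differed by chromosome. Of exon probe sets with chromosome 10 IDs, where ANKRD1 lies, 570 of 23513 (2.42%) were higher and 478 (2.03%) lower. On chromosome 19, the chromosome of AXL, 189 of 23635 (0.800%) were higher and 351 (1.49%) lower. On chromosome 1, the chromosome of ARHGAP29, 754 of 57185 (1.32%) were higher and 1701 (2.97%) lower. ARHGAP29 thus stood among more lower than higher probe sets, which also holds over all exon probe sets. The table has 13 higher and 33 lower clusters on chromosome 1. More lower than higher clusters is also the state of the whole table, with 185 higher and 306 lower. On chromosome 19 the table has 5 higher and 10 lower clusters, and on chromosome 10 it has 13 higher and 5 lower.

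The median signal of a whole chromosome, taken over its exons with a mean signal of 7 or more and relative to all chromosomes, was then compared between the groups. On chromosome 1 it was shifted by -0.034 ± 0.011 in shPLK1 and 0.033 ± 0.007 in shNS (SD, n = 4 arrays each). In shPLK1 the 4 values were -0.020, -0.046, -0.033 and -0.038, and in shNS they were 0.023, 0.033, 0.036 and 0.039, so the groups did not overlap. The difference was -0.067 (SE 0.006), with a limma p of 9.26e-06 after adjustment over 23 chromosomes and a two-sided exact permutation p of 0.029, the smallest possible for 4 arrays against 4. By absolute size this difference ranked 4 of 23 chromosomes, so a shift was not particular to chromosome 1. The clusters of ARHGAP29 were higher by 1.88 and 1.96, while the median of its chromosome was lower. These are unlike measures, selected clusters beside a median over many exons, and a link between them was not tested. On chromosome 10 the shift differed by 0.002 (SE 0.006) and on chromosome 19 by -0.003 (SE 0.010), and limma gave an adjusted p of 0.84 for each. In both the arrays of the groups overlapped. How many of all 23 chromosomes had groups that did not overlap is not given here, so the lack of overlap on chromosome 1 is not read as unusual.

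**Figure D5:**
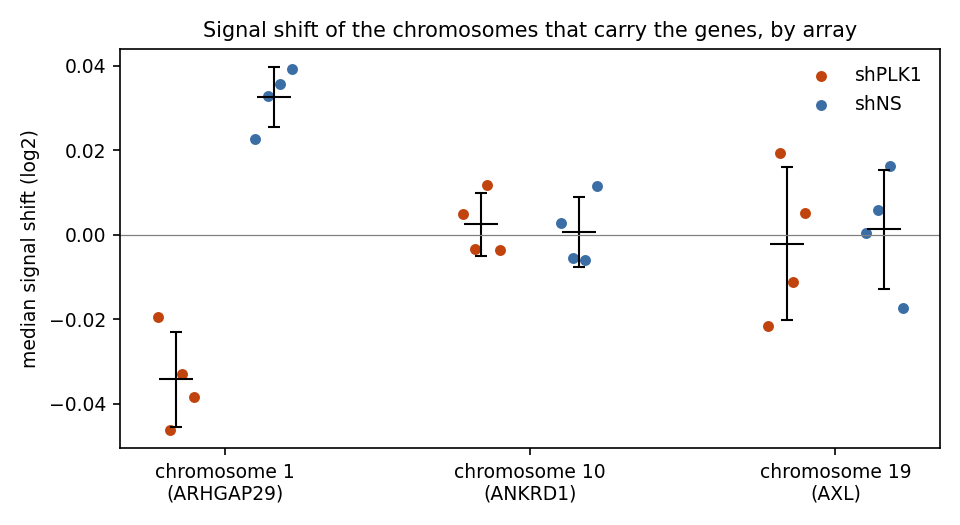
Median signal shift (log2, vertical axis) of chromosomes 1, 10 and 19 in each shPLK1 and shNS array, taken over exons with a mean signal of 7 or more and relative to all chromosomes. Points are arrays, and bars are mean and SD. Among the chromosomes shown, only on chromosome 1 (-0.034 in shPLK1 and 0.033 in shNS) do the groups not overlap. Overlap on the other chromosomes is not given.

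The listed clusters next to each gene in the order of the IDs on its chromosome did not all have its direction. ANKRD1 stood between SFTA1P, a pseudogene with 6.61 in 5d and 5.08 in NS, and LOXL4, a lysyl oxidase of the matrix with 8.31 in 5d and 6.97 in NS, both of them higher. AXL followed C19orf33 (9.23 in 5d and 7.63 in NS) and came before AC008440.10 (5.87 in 5d and 7.23 in NS), so its neighbors differed in opposite directions. The neighbors of ARHGAP29 were all lower. Around its coding cluster were LAPTM5, a lysosomal membrane protein (6.23 in 5d and 7.56 in NS), and the long noncoding RNA LINC00622 (6.33 in 5d and 8.61 in NS). Around its noncoding cluster were noncoding clusters of RUNX3, a transcription factor (5.72 in 5d and 7.33 in NS), and of LINC00622 (5.27 in 5d and 7.12 in NS). The IDs carry no distances, so these are neighbors in the listing only.

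The clusters of other symbols most like each gene were found by the Euclidean distance over the 2 averages, a likeness over 2 values that depends on the probes of each cluster and says nothing of shared control. For AXL the nearest were SPANXC, a cancer-testis antigen (10.74 in 5d and 9.59 in NS, distance 0.067), the ephrin receptor EPHA2 (9.98 in 5d and 8.94 in NS, distance 0.935) and the transglutaminase TGM2 (9.86 in 5d and 8.76 in NS, distance 1.15). For ANKRD1 they were MYO10, the myosin of filopodia (7.60 in 5d and 6.37 in NS, distance 0.121), the phosphodiesterase PDE2A in a noncoding cluster (distance 0.151) and the F-box protein FBXL7 (distance 0.179). For the coding cluster of ARHGAP29 they were the endophilin SH3GL2 (7.46 in 5d and 5.48 in NS, distance 0.122), SAMD9L (distance 0.234) and FAM155A (distance 0.242). For the noncoding cluster they were the protocadherin PCDH17 (distance 0.114), the basement membrane protein NID2 (distance 0.184) and the semaphorin SEMA3D (distance 0.210). None of these 12 is in the lists used here. Those are a selection of genes, so this does not show that a gene is unlinked to YAP.

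As the 3 genes are described as YAP targets, the 250 bases before their RefSeq starts were searched for the TEAD motif GGAATG. Both strands were searched, and on the other strand it reads CATTCC. RefSeq (GRCh38.p14) gave 5 starts for the 3 genes. The sequences below are shown because they hold a match or are the first listed start of a gene without one there. They run 5′ to 3′ on the strand of the gene, and capitals mark the matches.
ANKRD1, chr10:90921088-90921337, minus strand: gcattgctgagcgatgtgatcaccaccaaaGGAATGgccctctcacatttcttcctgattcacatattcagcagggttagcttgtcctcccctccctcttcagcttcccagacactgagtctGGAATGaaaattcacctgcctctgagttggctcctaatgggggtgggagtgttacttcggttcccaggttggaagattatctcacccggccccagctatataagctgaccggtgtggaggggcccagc
AXL, second start, chr19:41226505-41226754, plus strand: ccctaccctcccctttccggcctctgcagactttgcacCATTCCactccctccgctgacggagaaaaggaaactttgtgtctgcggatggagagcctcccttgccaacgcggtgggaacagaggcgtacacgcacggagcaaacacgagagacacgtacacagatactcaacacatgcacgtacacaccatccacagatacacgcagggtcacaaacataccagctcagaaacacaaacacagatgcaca
AXL, first start, chr19:41218973-41219222, plus strand: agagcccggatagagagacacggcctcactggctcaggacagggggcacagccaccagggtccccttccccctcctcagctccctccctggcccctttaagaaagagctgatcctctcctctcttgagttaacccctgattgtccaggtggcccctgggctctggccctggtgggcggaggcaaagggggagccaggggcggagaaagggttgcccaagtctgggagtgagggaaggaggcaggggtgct
ARHGAP29, first start, chr1:94247747-94247996, minus strand: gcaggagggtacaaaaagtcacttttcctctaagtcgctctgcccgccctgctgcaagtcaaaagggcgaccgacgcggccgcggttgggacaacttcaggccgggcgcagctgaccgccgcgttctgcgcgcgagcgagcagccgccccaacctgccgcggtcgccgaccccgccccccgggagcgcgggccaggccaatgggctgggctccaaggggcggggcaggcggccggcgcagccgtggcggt

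The ANKRD1 sequence holds the TEAD motif 2 times, from 220 to 215 and from 128 to 123 bases before the start. Of all 35116 RefSeq promoter windows of this length, 11.9% hold it at least once and 0.940% at least 2 times. The second start of AXL, which lies within the gene's span, holds it once, from 212 to 207 bases before the start, and the first start does not hold these letters. Neither of the listed starts of ARHGAP29 holds them. Both lie within the gene's span, and the bases before its outermost end were not searched. The AP-1 pattern TGANTCA, with any base at N, reads alike on both strands. It is found once in ANKRD1, as the letters TGATTCA, from 195 to 189 bases before the start and apart from both TEAD matches. None of the other 4 windows holds the pattern, and 6.57% of all windows do. The letters TATAAA are in none of the 5 windows and in 10.7% of all. Only these exact letters were searched, so near variants, such as the letters TATATAAG in the ANKRD1 window, were not counted. GC content was 53.2% for ANKRD1, 64.4% and 54.4% for AXL and 72.8% and 75.2% for ARHGAP29, beside a median of 58.0% over all windows. A match of letters is a description of the sequence and does not show a bound site. As the genes were chosen as YAP-linked, nothing is read from the shares of windows.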

How the data were processed

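Total RNA of A375 shPLK1 and A375 shNS cells (4 arrays each) was hybridized to Affymetrix Human Transcriptome Arrays. The authors used the Transcriptome Analysis Console and RMA, a method of background correction, quantile normalization and probe summary. The deposited log2 values hold 573909 exon and 339146 junction probe sets and 1530 control rows. The authors' deposited table holds bi-weight log2 averages per group for 491 clusters. Its fold changes and p-values are the authors' own comparison and were not used. The genome build of the files is not given in the sources used here.

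The 3 members, the 6 gene lists reported and the limits were chosen with earlier results of these data known. Differences were taken between the averages, coding and noncoding clusters apart. limma (3.58.1, R 4.3.3) was fitted to all exon probe sets and to 23 chromosomes with group as the only term, tested on simulated data, and adjusted by Benjamini-Hochberg. Each group is 1 cell line, by the Methods for such lines 1 polyclonal pool, so p-values cover only differences between its cultures. Named beside the members were every listed gene of the lists, the 3 nearest clusters by distance and the listed neighbors with a symbol. Symbols, spans and promoters came from RefSeq, which matched all 3 genes. One planned list is not reported here. Values of the genes by array were planned only for a table pairing probe sets with genes, and none was used. The number of arrays limits precision. Python (3.11.15) drew the figures.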

Additional observations from a re-analysis of the deposited data

How the results depend on the processing

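The averages of the 3 genes cannot be recomputed from the probe sets, so only their summary was varied. The mean over both clusters put ARHGAP29 at 1.92, beside 1.88 and 1.96 apart. Current symbols alone left the list counts as they were. The shares and SDs of exon probe sets at each level stayed within their counting interval or spread with a window of 0.5 and, for the shares, with junction probe sets. This is a weak check. The spread is that over single probe sets, and a median over so many could hardly move that far. The counting interval takes probe sets as independent. With each array left out in turn, the SDs ran from 0.115 to 0.143 around AXL, 0.180 to 0.197 around ANKRD1, 0.193 to 0.207 around the coding and 0.203 to 0.216 around the noncoding cluster of ARHGAP29. The shares ran from 0.303% to 0.453%, 0.769% to 0.888%, 0.208% to 0.267% and 0.153% to 0.215% in the same order.

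Exon calls numbered 7432 higher and 8864 lower under an ordinary equal-variance test, which does not share the spread between probe sets, beside 11422 and 12624 by limma. They were 14957 and 16626 with a trend in eBayes and 10803 and 12499 with arrays centred, both among the same 573909 probe sets. Other settings changed the number of probe sets tested, so their counts are not directly comparable. Calls were 12491 and 12995 of 286955 with the dimmer probe sets (under the median) left out. With junction probe sets they were 13114 and 14797 of 913055, and without repeated rows 11271 and 12059 of 547590. With 1 array left out they ran from 8140 to 9614 higher and from 9800 to 11198 lower. With the replicate number as a block they were 8077 higher and 9161 lower. Same-numbered arrays did not deviate together (r of -0.145, 0.042, -0.065 and -0.103), so the numbers were not read as pairs, and the block changed no call on a chromosome. The chromosome 1 shift ran from -0.072 to -0.063 with an array left out. On chromosome 10 it ran from -0.0013 to 0.0055 and on chromosome 19 from -0.0105 to 0.0031, so neither has a settled sign. Without centring on all chromosomes, chromosome 10 differed by -0.0057 (adjusted p = 0.59 from limma).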
